A study of Mus musculus with 6 samples.

Results

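The interferon regulatory factor (IRF) family was followed in single bone marrow-derived macrophages, as the 7 genes Irf1, Irf2, Irf3, Irf5, Irf7, Irf8 and Irf9, chosen by name from the 18429 genes of a MARS-seq count matrix. MARS-seq sorts single cells into the wells of plates and counts unique molecular identifiers (UMIs), each standing for 1 captured transcript. The study compared macrophages with and without cohesin, the ring complex that folds chromatin and of which RAD21 is a subunit. There were 6 samples, wild-type or Rad21-/-, each untreated or given bacterial lipopolysaccharide (LPS) at 10 ng/ml for 2 h or 8 h, with 1 sample per condition and 1362 cells in all. Wild-type and Rad21-/- samples held 239 and 270 cells untreated and 257 and 224 at 8 h, and the 2 h samples held the fewest. Both genotypes carried creERT2 on both alleles of the rosa26 locus and both received 4-hydroxytamoxifen at 200 nM, so that only the Rad21 alleles, floxed or wild-type, set them apart by design. Marrow cells were grown in L929-conditioned medium and used at day 7. With 1 sample per condition there is no replicate error, no test between conditions was possible, and the intervals below are 95% intervals for counting error only.

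IRF proteins share an amino-terminal DNA-binding domain, marked by conserved tryptophans, that binds interferon-stimulated response elements (ISRE) and related sites. IRF3 and IRF5 lie latent in the cytoplasm until phosphorylation downstream of Toll-like receptors, and IRF3 then switches on the interferon-beta gene. Secreted interferon acts through ISGF3, a complex in which STAT2 and IRF9 take part, which raises IRF7, the amplifier of the interferon response. IRF1 is an immediate target of NF-kappaB, IRF2 competes with IRF1 for the same sites, and IRF8 is a myeloid lineage factor that works with PU.1.

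The promoters of 4 members are printed because the transcript levels of Irf1 and Irf7 ranged most widely over the samples and because Irf2 and Irf8 were the other members with a match to a motif searched. The sequences are from RefSeq on GRCm38.p6, run 5′ to 3′ on the strand of the gene and end at the last base before the annotated start. Irf1, Irf2 and Irf8 lie on the plus strand at chr11:53769764-53770013, chr8:46739495-46739744 and chr8:120736108-120736357, and Irf7 on the minus strand at chr7:141266425-141266674. Capitals mark matches, on either strand, to the ISRE motif GAAANNGAAA, the gamma-activated site (GAS) motif TTCNNNGAA, and the NF-kappaB motif.
Irf1: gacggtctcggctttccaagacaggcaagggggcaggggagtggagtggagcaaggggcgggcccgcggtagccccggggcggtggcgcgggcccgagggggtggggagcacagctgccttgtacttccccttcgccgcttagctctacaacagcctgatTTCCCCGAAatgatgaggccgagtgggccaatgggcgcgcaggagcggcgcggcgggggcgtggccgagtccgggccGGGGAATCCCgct
Irf2: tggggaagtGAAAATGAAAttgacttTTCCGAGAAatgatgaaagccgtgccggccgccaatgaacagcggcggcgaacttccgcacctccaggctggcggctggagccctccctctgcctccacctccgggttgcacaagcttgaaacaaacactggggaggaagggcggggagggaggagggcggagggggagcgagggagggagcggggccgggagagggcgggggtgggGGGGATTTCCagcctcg
Irf7: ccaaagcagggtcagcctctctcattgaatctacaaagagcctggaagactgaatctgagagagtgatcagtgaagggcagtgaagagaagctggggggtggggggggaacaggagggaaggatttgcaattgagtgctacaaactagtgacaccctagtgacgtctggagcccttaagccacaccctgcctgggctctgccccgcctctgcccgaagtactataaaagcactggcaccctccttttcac
Irf8: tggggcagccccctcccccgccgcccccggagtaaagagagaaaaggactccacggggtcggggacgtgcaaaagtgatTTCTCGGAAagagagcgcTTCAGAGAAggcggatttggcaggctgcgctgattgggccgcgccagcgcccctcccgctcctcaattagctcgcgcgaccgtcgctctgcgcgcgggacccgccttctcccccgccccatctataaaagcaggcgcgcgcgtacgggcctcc
The Irf1 window held a GAS match, TTCCCCGAA, from base -90 to -82 and an NF-kappaB match, GGGGAATCCC, from -13 to -4 before the start. The Irf2 window held an ISRE match, GAAAATGAAA, at -241 to -232, a GAS match, TTCCGAGAA, at -224 to -216 and an NF-kappaB match, GGGGATTTCC, at -17 to -8. The Irf8 window held a pair of GAS matches, TTCTCGGAA at -171 to -163 and TTCAGAGAA at -153 to -145. The Irf7 window, and the windows of Irf3, Irf5 and Irf9, held none of these letters. No matches overlapped in these windows. Of 32851 promoters of the same length, 250 bases before and 50 after the start, 3.44% held the ISRE motif, 8.3% the GAS motif and 4.51% the NF-kappaB motif. All 7 members had at least 1 of the 10 promoters found, and a match of letters is a description of the sequence, not a site shown to be bound.

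The members lie apart in the genome, Irf1 on chromosome 11 (53770014 to 53778374), Irf2 and Irf8 far apart on chromosome 8, Irf3 and Irf7 far apart on chromosome 7, Irf5 on chromosome 6 and Irf9 on chromosome 14. Irf7 spans 141263183 to 141266499. The span of Irf5 overlaps that of Tnpo3 and the span of Irf2 those of 2 long non-coding RNA genes, and how the counting treated such overlaps is not given in the sources used here.

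The deletion was visible in the target. Rad21 had a UMI in 25.9%, 26.9% and 18.7% of wild-type cells at 0, 2 and 8 h, and in 2.96%, 6.45% and 5.80% of Rad21-/- cells. Median depth was 5577 to 7055.5 UMIs per cell, deepest in Rad21-/- cells at 8 h, and 5 wells of more than 25000 UMIs held 45.5% of the UMIs of the wild-type 2 h sample. Shares are therefore also given after random thinning of every cell to a depth of 3800 UMIs, at which 21 to 47 shallower cells per sample drop out. The levels below are means over cells of CPM, the UMIs of a gene scaled to a common total per cell, in which each cell weighs the same. All 10 macrophage markers were detected in every sample, with a summed level of 11800 to 13100 CPM before and at 2 h and of 7770 and 8730 CPM at 8 h. Of 6 B cell markers, 2 had values, Ighm and Ms4a1, with summed levels of 23.9 to 49 CPM in the wild-type samples and 170 to 181 CPM in the Rad21-/- samples. Ighm, the mu heavy chain gene, accounted for this, with a UMI in 8.56 to 17.2% of wild-type and 42.4 to 52.2% of Rad21-/- cells, whereas Ms4a1 was at 3.33 to 9.14% in all samples. Its part in the genotype differences below was not tested. The T and NK cell list (2 of 6 genes with values, summed level 12 to 18.1 CPM) and the dendritic cell list (3 of 6, with Ccr9 in 39.3 to 49.1% and Flt3 in 1.61 to 3.5% of cells) were at like levels in both genotypes. The fibroblast list (3 of 5) summed to 7.25 to 21.4 CPM, the mast cell list (1 of 4) to 10.3 to 23.6 CPM and the neutrophil list (2 of 8) to 0 to 13.4 CPM, with both neutrophil genes at 0 in untreated wild-type cells, and none of 5 erythroid markers had values. Genotypes shared 23 of the 24 library pools, while 0 pools held more than 1 time point, so LPS time and library pool cannot be told apart.

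Irf7 separated the genotypes at every time. Untreated, 84.5% of wild-type cells (95% exact interval 79.3 to 88.9%) and 43.7% of Rad21-/- cells (37.7 to 49.9%) had an Irf7 UMI. After 2 h of LPS these were 77.4% (70.7 to 83.2%) and 36.6% (29.6 to 43.9%). After 8 h nearly every wild-type cell was positive, 99.2% (97.2 to 99.9%), against 84.4% of Rad21-/- cells (79.0 to 88.9%). The intervals of the genotypes did not overlap at any of the 3 times, and the Rad21-/- share after 8 h of LPS lay at that of resting wild-type cells, although the Rad21-/- sample was the deeper and at equal depth, as given next, was lower. Thinned wild-type cells were positive in 79.7%, 66.7% and 95.2% of cases over the 3 times, and thinned Rad21-/- cells in 34.5%, 21.4% and 68.5%.

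The mean level of Irf7 was 487.7, 288.6 and 877.6 CPM in wild-type and 110.8, 78.8 and 345.4 CPM in Rad21-/- cells at 0, 2 and 8 h. From highest to lowest, the order was wild-type at 8 h, untreated wild-type, Rad21-/- at 8 h, wild-type at 2 h, untreated Rad21-/- and Rad21-/- at 2 h. The counting intervals of the thinned levels overlapped between Rad21-/- at 8 h and wild-type at 2 h, and between the 2 lowest samples, but between no other neighbours. Irf7 was thus lower in Rad21-/- cells by 4.37-fold untreated, 3.63-fold at 2 h and 2.54-fold at 8 h, a log2 ratio of -2.13, -1.86 and -1.34. From thinned UMIs the log2 ratio and its interval were -2.06 (-2.40 to -1.74), -1.90 (-2.41 to -1.42) and -1.40 (-1.61 to -1.20).

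**Figure D1:**
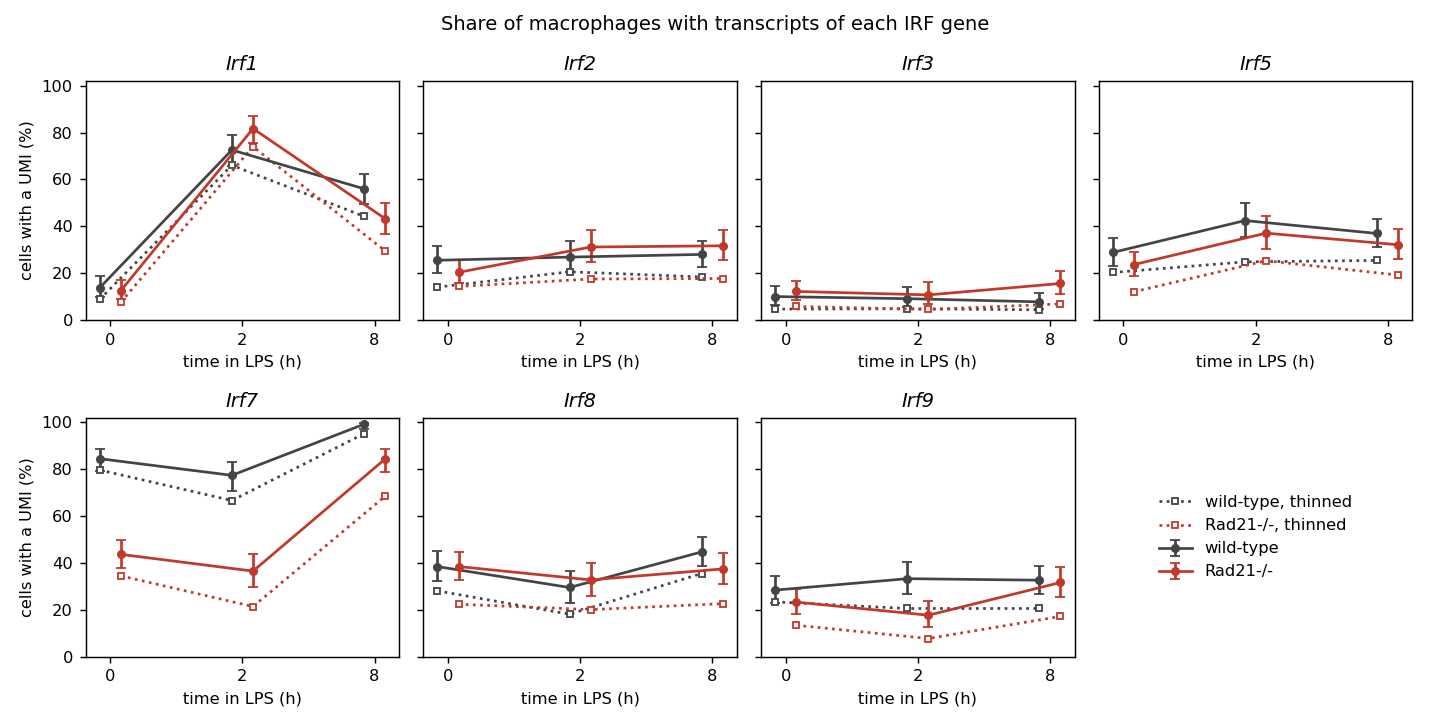
Percentage of cells with at least 1 UMI of each of the 7 IRF genes (y axis) against time in LPS (x axis, h), for wild-type (grey) and Rad21-/- (red) macrophages. Filled circles with bars are all cells with exact 95% intervals for counting error, and open squares on dotted lines are cells thinned to 3800 UMIs. Irf7 is lower in Rad21-/- cells at all 3 times, Irf1 peaks at 2 h in both genotypes, and the other 5 genes stay below 45%.

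The Irf7 difference was seen both in the share of cells with a UMI and in the level per positive cell. With a few UMIs per cell, a lower mean in every cell would lower both. The thinned variance over mean of Irf7 was 1.12 to 1.35 across the samples. The parts below therefore do not tell cells without transcripts from cells in which none was captured. Untreated, the log2 ratio of shares was -0.95 and that of the level per positive cell -1.19. At 8 h, when nearly all wild-type cells were positive, the parts were -0.23 and -1.11. In thinned cells at 8 h, 25.4% of wild-type but 0.493% of Rad21-/- cells held 5 to 9 Irf7 UMIs, and 4.82% against 31.5% held none. The whole distribution was shifted, as 54.4% of wild-type and 34% of Rad21-/- cells held 2 to 4 UMIs.

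**Figure D2:**
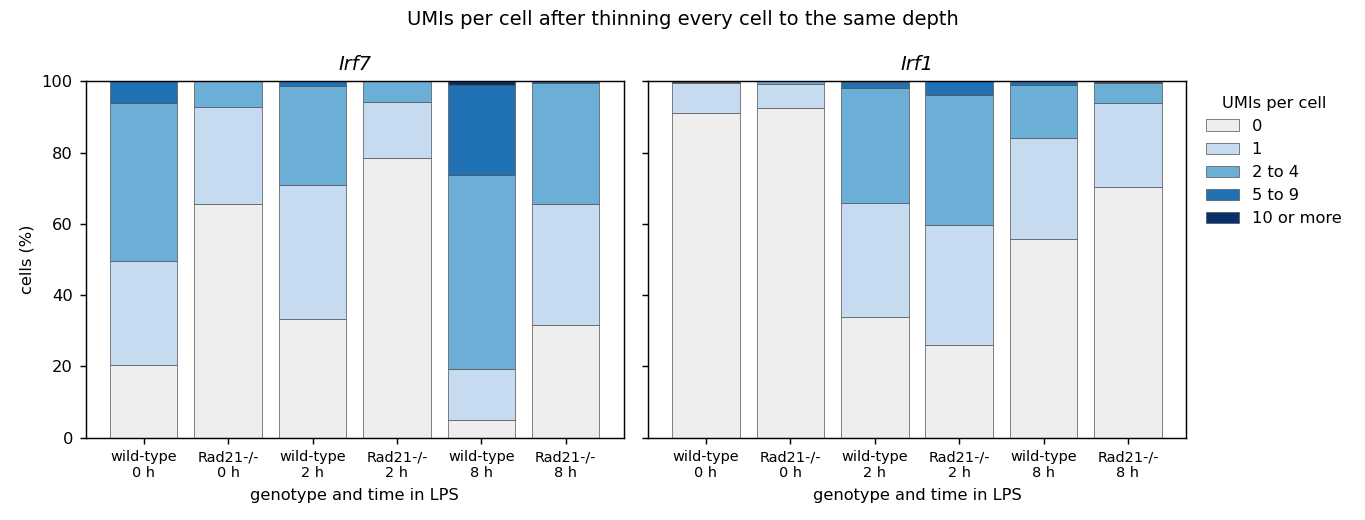
Percentage of cells (y axis) holding 0, 1, 2 to 4, 5 to 9 or 10 or more UMIs of Irf7 (left) and Irf1 (right) after thinning every cell to 3800 UMIs, by genotype and time in LPS (x axis). At 8 h 25.4% of wild-type and 0.493% of Rad21-/- cells held 5 to 9 Irf7 UMIs, and Irf1 was at 0 in 91.1% and 92.4% of untreated cells.

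The lower Irf7 share was found inside every library pool with at least 10 cells of each genotype. It was lower in Rad21-/- cells in 8 of 8 pools untreated, 4 of 4 at 2 h and 6 of 6 at 8 h. Pools here and below are technical parts of 1 sample per condition and not replicates of a genotype. Across pools the share ran from 75 to 93% in wild-type and 25.9 to 57.5% in Rad21-/- cells untreated, and from 65.8 to 85.1% and 15.6 to 51.2% at 2 h. At 8 h the ranges were 97.6 to 100% and 53.9 to 90.9%. The pools of the genotypes did not overlap at any time. Leaving out 1 pool at a time moved the log2 ratio between -2.23 and -2.07 untreated, -2.15 and -1.65 at 2 h, and -1.40 and -1.30 at 8 h.

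**Figure D3:**
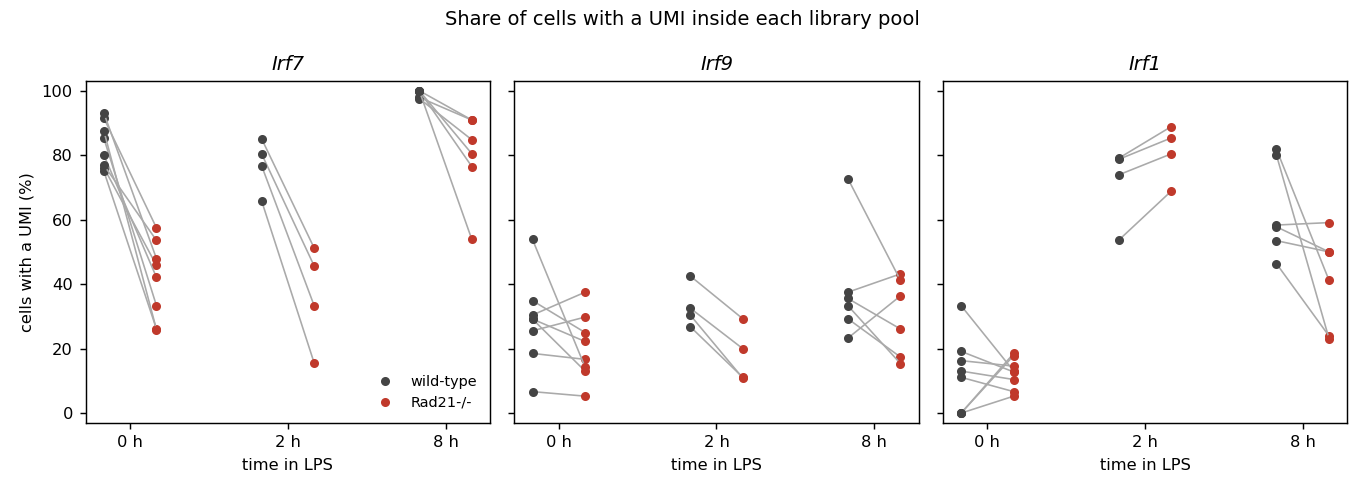
Percentage of cells with a UMI of Irf7, Irf9 or Irf1 (y axis) inside each library pool with at least 10 cells of each genotype, by time in LPS (x axis). Each grey line joins the wild-type (grey) and Rad21-/- (red) cells of 1 pool, with 8, 4 and 6 pools at 0, 2 and 8 h. The Irf7 lines all slope down, as do those of Irf9 at 2 h, and those of Irf1 at 2 h all slope up.

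In the LPS response, Irf7 was not raised at 2 h in either genotype. The log2 ratio of 2 h over untreated was -0.76 in wild-type and -0.49 in Rad21-/- cells, and both thinned intervals lay below 0 (-1.07 to -0.53 and -1.18 to -0.11). Between 2 and 8 h Irf7 rose 3.03-fold in wild-type and 4.34-fold in Rad21-/- cells, log2 ratios of 1.60 and 2.12. Against untreated cells the 8 h level was 1.8-fold higher in wild-type, under the 2-fold limit used for a call, and 3.1-fold higher in Rad21-/- cells. The difference between the genotypes' 8 h responses, 0.79 on the log2 scale, was not tested. The ratios of 1 genotype share samples with each other and with the genotype comparisons.

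Irf1 showed the largest rise of the members at 2 h of LPS. Wild-type cells with an Irf1 UMI made up 13.8% untreated (9.70 to 18.8%), then 72.6% of the 2 h sample (65.6 to 78.9%) and 56.0% of the 8 h sample (49.7 to 62.2%). Rad21-/- cells were positive in 12.6% (8.88 to 17.2%), then 81.7% (75.4 to 87%) and last 43.3% (36.7 to 50.1%). Both genotypes were low at rest, high at 2 h and intermediate at 8 h, and the intervals of the genotypes overlapped at all 3 times, at 8 h only just. At equal depth the 8 h shares, 44.3% (37.7 to 51%) in wild-type and 29.6% (23.4 to 36.4%) in Rad21-/- cells, did not overlap, while the thinned shares of 8.85% and 7.62% untreated and of 66.1% and 74.03% at 2 h did.

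The mean level of Irf1 was 30.7, 313.8 and 175.5 CPM in wild-type and 25.2, 398 and 86.1 CPM in Rad21-/- cells. The 2 h samples stood highest with overlapping intervals, followed by wild-type at 8 h, Rad21-/- at 8 h and the untreated samples, which overlapped. At 2 h Irf1 rose 9.92-fold in wild-type cells (log2 3.31, thinned 3.77, 3.07 to 4.55) and 15.3-fold in Rad21-/- cells (log2 3.93, thinned 4.10, 3.42 to 4.86). The untreated wild-type level leaned on a pool of 24 wild-type and 23 Rad21-/- cells, where Irf1 stood at 122.6 CPM in wild-type cells. Without that pool the wild-type log2 ratio to untreated was 3.87 at 2 h and 3.04 at 8 h. Irf1 was the 1 member called higher at 2 h of 6 tested in each genotype, against 4.03% of all genes tested in wild-type and 3.42% in Rad21-/- cells. By 8 h the level had come down 1.78-fold in wild-type, short of a call, and 4.58-fold in Rad21-/- cells, log2 ratios of -0.84 and -2.20. It was still 5.56-fold and 3.33-fold above the untreated level.

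Between the genotypes, Irf1 was within counting error of equality when untreated (log2 -0.28, thinned -0.14, -1.15 to 0.88) and at 2 h (0.34, thinned 0.19, -0.09 to 0.47). Leaving out 1 pool at a time moved the untreated log2 ratio between -0.505 and 0.222. At 8 h Irf1 was 2.03-fold lower in Rad21-/- cells, a log2 ratio of -1.02, just past the limit. The thinned ratio was -0.84 (-1.25 to -0.44), below 0 but not past 2-fold, and the ratio was -0.85 when all UMIs of a sample were pooled. Leaving out the pool of 41 wild-type and 46 Rad21-/- cells gave -0.84 and leaving out that of 15 and 13 cells gave -0.93, so the call at 8 h was lost without either pool, while the direction did not change. Within pools the mean level was lower in Rad21-/- cells in 6 of 6 pools at 8 h and the share in 5 of 6. At 2 h both measures were higher in Rad21-/- cells in 4 of 4 pools.

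Irf9, the DNA-binding subunit of ISGF3, was lower in Rad21-/- cells at 2 h. The 2 h shares of cells with a UMI were 33.3% in wild-type (26.6 to 40.6%) and 17.7% in Rad21-/- cells (12.5 to 24%). Untreated wild-type and Rad21-/- samples had 28.5% (22.8 to 34.6%) and 23.3% (18.4 to 28.8%), and the 8 h samples 32.7% (27.0 to 38.8%) and 31.7% (25.7 to 38.2%). The wild-type values were nearly level over time, and the share intervals of the genotypes did not overlap at 2 h but did untreated and at 8 h. The mean levels were 63.1, 62.8 and 62.9 CPM in wild-type and 42.2, 25.3 and 43.9 CPM in Rad21-/- cells. The 2 h ratio was 2.43-fold (log2 -1.28, thinned -1.67, -2.74 to -0.72), and the share was lower in 4 of 4 pools. The thinned ratio rested on 41 wild-type and 12 Rad21-/- UMIs. Before thinning the samples held 165 and 40 UMIs, with up to 48 in a single wild-type cell. The log2 ratio was -0.57 untreated (thinned -0.77, -1.45 to -0.12) and -0.51 at 8 h (thinned -0.18, -0.82 to 0.44), neither past 2-fold. The mean level was lower in 7 of 8 pools untreated and 5 of 6 at 8 h, and the share in 6 of 8 and 4 of 6. The counting intervals of neighbouring samples in the order of levels overlapped throughout.

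Irf8 differed with time in wild-type cells and between the genotypes at 8 h. It had a UMI in 38.5%, 29.6% and 44.8% of wild-type cells at 0, 2 and 8 h, and in 38.5%, 32.8% and 37.5% of Rad21-/- cells. The mean levels were 93.7, 51.0 and 116.9 CPM in wild-type and 79.9, 63.9 and 61.2 CPM in Rad21-/- cells. Wild-type cells at 8 h were the highest sample and wild-type cells at 2 h the lowest, and every neighbour in the order overlapped. From 2 to 8 h Irf8 rose 2.27-fold in wild-type cells (log2 1.18, thinned 1.40, 0.83 to 2.02), but the log2 ratio was 0.40 when UMIs were pooled, where the deep wells of the 2 h sample weigh most. In Rad21-/- cells the same ratio was -0.06 (thinned 0.24, -0.39 to 0.89). The difference of -1.24 between the genotypes' log2 ratios was not tested. At 8 h Irf8 was 1.9-fold lower in Rad21-/- cells (log2 -0.92, thinned -0.90, -1.38 to -0.42), short of 2-fold. Its mean level was lower in 6 of 6 pools and its share in 5 of 6. At equal depth the 8 h shares did not overlap, 35.5% in wild-type (29.3 to 42.1%) and 22.7% in Rad21-/- cells (17.1 to 29.04%). Thinned to 5500 UMIs, the log2 ratio was -1.09 and past 2-fold. Without the pool of 45 wild-type and 46 Rad21-/- cells the ratio of mean CPM was -1.07, also past 2-fold.

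Irf5, which couples Toll-like receptors to inflammatory cytokine genes, had a UMI in 28.9%, 42.5% and 37.0% of wild-type and 23.7%, 37.1% and 32.1% of Rad21-/- cells at 0, 2 and 8 h. Its mean levels were 65.5, 90.6 and 83.9 CPM in wild-type and 51.9, 78.3 and 57.4 CPM in Rad21-/- cells. Over all cells the Rad21-/- value was the smaller at each time, and no ratio of mean CPM passed 2-fold. In thinned cells the 2 h samples were level, at 31.2 UMIs per 100 Rad21-/- cells and 30.9 per 100 wild-type cells. Leaving out 1 pool at a time moved the 2 h log2 ratio between the genotypes between -0.44 and 0.10. Over all cells the 2 h share interval lay above the untreated one in both genotypes. It was 35.3 to 49.9% against 23.2 to 35.1% in wild-type and 30.1 to 44.5% against 18.8 to 29.2% in Rad21-/- cells. At equal depth the wild-type intervals overlapped, 18.5 to 32.2% at 2 h against 14.9 to 26.7% untreated. Those of Rad21-/- cells did not, 18.7 to 32.95% against 8.13 to 17.1%. The log2 ratio of 2 h over untreated was 0.46 in wild-type (thinned 0.22, -0.37 to 0.81) and 0.58 in Rad21-/- cells (thinned 1.12, 0.44 to 1.81), the latter past 2-fold at equal depth. Neighbours in the order of levels overlapped, but the thinned interval of untreated Rad21-/- cells, 9.82 to 20.3 UMIs per 100 cells, lay below those of both 2 h samples. The log2 ratio between the genotypes was -0.33 untreated, where the thinned interval lay below 0 (-1.57 to -0.22), -0.21 at 2 h and -0.54 at 8 h.

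Irf2 had a UMI in 20.4 to 31.7% of cells and a mean level of 32.2 to 58.4 CPM, lowest in untreated Rad21-/- cells. All thinned intervals of its genotype ratios spanned 0, and the log2 ratio of -0.69 in untreated cells became 0.01 after thinning (-0.74 to 0.76). Irf3, the latent factor, had a UMI in 7.78 to 15.6% of cells and a mean level of 10.9 to 23.3 CPM. Its shares reach down to those of listed markers of other cell types, Ms4a1 of B cells at 3.33 to 9.14% and Cpa3 of mast cells at 8.17 to 13%. Such markers were not all low, as Ccr9 of the dendritic cell list, at 39.3 to 49.1%, lay above every share of Irf2 and Irf9. Irf3 was too sparse for a call between the genotypes at any time, with 62 to 72 UMIs in both samples together. At 8 h its mean level was 23.3 CPM in Rad21-/- and 10.9 CPM in wild-type cells, a log2 ratio of 1.03 with a thinned interval of -0.50 to 2.07. The largest log2 ratios over time were 0.84 for Irf2, in Rad21-/- cells from 0 to 2 h (thinned 0.41, -0.33 to 1.14), and -0.96 for Irf3, in wild-type cells from 0 to 8 h (thinned -0.10, -1.55 to 1.38). Every thinned interval of both genes spanned 0, over time and between genotypes, so no difference was detectable in thinned cells. Within pools, the mean level of Irf2 was lower in Rad21-/- cells in 7 of 8 untreated, and that of Irf3 higher in 4 of 4 at 2 h and 5 of 6 at 8 h. The share of Irf2 was lower in 6 of 8 untreated. That of Irf3 was higher in 2 of 4 and lower in 1 at 2 h, and higher in 5 of 6 at 8 h.

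**Figure D4:**
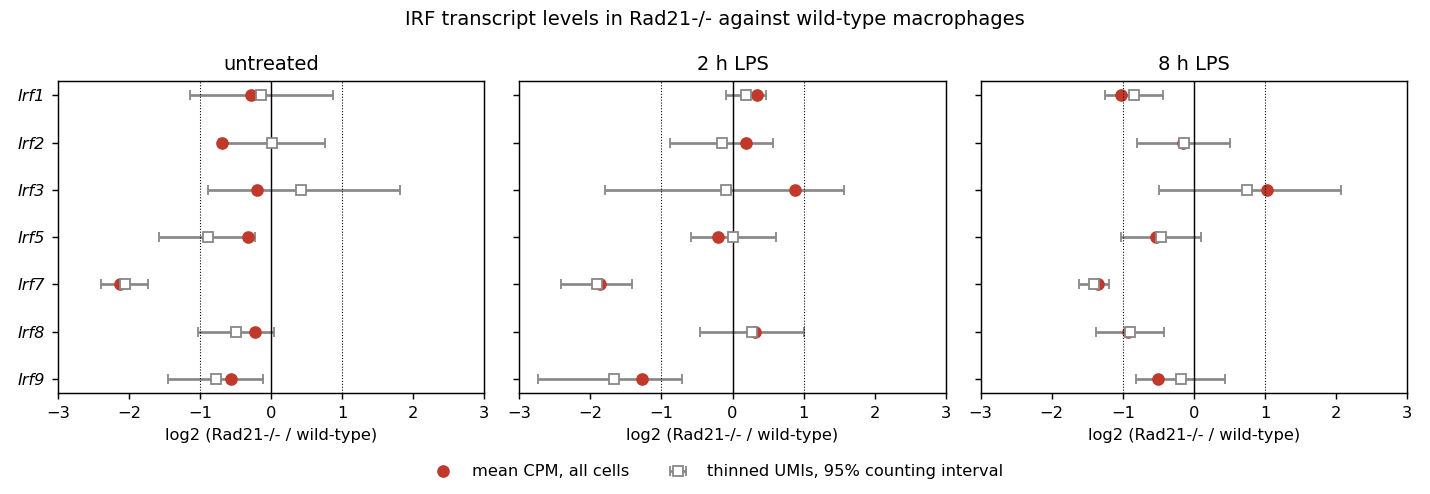
Log2 ratio of Rad21-/- over wild-type (x axis) for the 7 IRF genes (y axis), untreated and at 2 and 8 h of LPS. Red circles are ratios of mean CPM with 1 CPM added, open squares are ratios of thinned UMIs with 95% counting intervals, and dotted lines mark 2-fold. The circles of Irf7 lie left of 2-fold in all 3 panels (-2.13, -1.86 and -1.34), as do those of Irf9 at 2 h (-1.28) and Irf1 at 8 h (-1.02). That of Irf3 at 8 h (1.03) lies right of 2-fold, with too few UMIs for a call.

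Across the members, a gene counted as called when its mean CPM, with 1 CPM added, differed by at least 2-fold and the samples together held at least 100 UMIs. Between the genotypes 1 of 5 members tested was lower untreated (Irf7), when 3.57% of 5804 genes were. At 2 h 2 of 6 were lower (Irf7 and Irf9), against 4.91% of 6720 genes, and at 8 h 2 of 6 (Irf7 and Irf1), against 5.46% of 6354 genes. None of the members tested was higher in Rad21-/- cells, where 1.27%, 2.17% and 5.68% of all genes were. The median log2 ratio of the members tested was -0.57, -0.01 and -0.73, beside -0.02, 0.02 and 0.19 for all genes. In the Rad21-/- samples Irf7 ranked low among all genes, with 29 genes at a lower ratio untreated, 76 at 2 h and 208 at 8 h.

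Over time in wild-type cells, 1 of 6 members was higher at 8 h than untreated (Irf1, background 9.25%) and 2 of 6 were higher at 8 h than at 2 h (Irf7 and Irf8, background 6.74%). Among Rad21-/- samples 2 of 6 were higher at 8 h than untreated (Irf1 and Irf7, background 7.23%). From 2 to 8 h 1 of 6 was higher (Irf7, background 5.66%) and 1 lower (Irf1, background 4.17%). None of the members was called lower at 2 or 8 h than untreated in either genotype, nor at 8 h than at 2 h in wild-type cells. The share of all genes called lower was 2.18%, 12.1% and 9.52% in these wild-type comparisons, and 1.02% and 4.68% in the Rad21-/- ones.

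The median cell held transcripts of 2 or 3 members, and after thinning of 2, except in untreated Rad21-/- cells, where it held 1. After thinning, a wild-type cell had UMIs of 1.79, 2.22 and 2.44 members on average at 0, 2 and 8 h, and a Rad21-/- cell of 1.10, 1.71 and 1.82. Cells with no UMI of any member made up 6.25%, 5.45% and 0.439% of wild-type and 28.7%, 11% and 9.85% of Rad21-/- cells. Over cells of 1 sample, at one depth, Pearson correlations between the 21 pairs of members were weak in these sparse counts, from -0.14 to 0.20. Those of Irf7 with the summed UMIs of 20 ISRE target genes were 0.09 to 0.23, and no finding is drawn from them.

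Upstream of the family, some of the 20 listed sensors and kinases passed 2-fold between the genotypes. Of 11, 15 and 11 tested at 0, 2 and 8 h, 0, 2 and 1 were higher in Rad21-/- cells. Of all genes 1.27%, 2.17% and 5.68% were. In the same order 1, 2 and 1 were lower, beside 3.57%, 4.91% and 5.46% of all genes. These shares are also the background for the genotype comparisons of the lists below. The median log2 ratio of the sensors and kinases was -0.27, 0.04 and -0.44, beside -0.02, 0.02 and 0.19 for all genes. At 8 h 8 of 11 ratios were negative. Cd14, the LPS co-receptor, was lower untreated (135.4 against 638.3 CPM, log2 -2.23) and at 2 h (log2 -1.76). Tlr4, the LPS receptor, was lower at 8 h (19.9 against 42.9 CPM, log2 -1.07). Slc15a4, an endolysosomal transporter needed for IRF5 activation, was higher at 2 h (log2 1.04) and 8 h (log2 1.48). Ddx58, the cytosolic RNA sensor RIG-I, was lower at 2 h (log2 -1.07) and Irak4, a kinase of the MyD88 pathway, higher (log2 1.32).

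Of 7 interferon ligand genes 1 had values. Ifnb1, the interferon-beta gene and a classical IRF3 and IRF7 target, had 75 UMIs in wild-type and 3 in Rad21-/- cells at 2 h and none in the other 4 samples, below the count needed for a call. Its mean level at 2 h was 49.04 and 1.976 CPM. Among 13 receptors and JAK-STAT partners, 2 of 8 were lower in untreated Rad21-/- cells, 1 of 11 at 2 h and 4 of 11 at 8 h, with none higher. The shares of all genes lower were 3.57%, 4.91% and 5.46%. Stat2, a partner of IRF9 in ISGF3, was lower untreated, at 32.7 against 95.7 CPM (log2 -1.52). At 8 h Jak2 (log2 -1.42), Stat2 (log2 -1.31) and Socs3, a feedback inhibitor (log2 -1.21), were lower.

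Downstream, most of a list of 20 genes driven through ISRE sites were lower in Rad21-/- cells at each time. Of those tested, 9 of 11 were lower untreated, 14 of 16 at 2 h and 11 of 20 at 8 h, with 0 higher, and the medians were -1.92, -1.73 and -1.17. The antiviral gene Ifit3 stood at 17.98 against 103.7 CPM untreated (log2 -2.46) and Oasl1, a translational inhibitor of Irf7 mRNA, at 20.1 against 180.8 CPM at 2 h (log2 -3.11). Rsad2, which encodes the antiviral enzyme viperin, was at 430.1 against 2756 CPM at 8 h (log2 -2.68). At 2 h of LPS 5 of 16 were higher than untreated in wild-type and 3 of 7 in Rad21-/- cells, beside 4.03% and 3.42% of all genes. Among them were the chemokine gene Cxcl10 (log2 5.69 and 7.08) and Rsad2 (log2 3.26 and 3.21). By 8 h 15 of 20 were higher in wild-type and 16 of 18 in Rad21-/- cells, beside 9.25% and 7.23% of all genes. The median log2 was 2.15 and 2.95. These medians cover unlike sets of genes, and all 11 genes tested between the genotypes started lower in untreated Rad21-/- cells. The medians therefore do not compare the strength of the response.

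Of 18 genes linked to IRF1, in class I presentation, the immunoproteasome and the interferon-inducible GTPases, 4 of 8 were lower in Rad21-/- cells untreated, 7 of 14 at 2 h and 11 of 17 at 8 h, with 0 higher and medians of -0.99, -1.05 and -1.32. At 8 h Nos2, the inducible nitric oxide synthase, was at 144.7 against 1255 CPM (log2 -3.11) and Iigp1, a GTPase, at 33.5 against 263.4 CPM (log2 -2.94). The largest falls among the genes tested at 2 h were those of Irgm2 (log2 -1.88), Cd274, the gene of PD-L1 (log2 -1.72), and Gbp2 (log2 -1.49). Gbp5 (log2 -0.08), Gbp7 (log2 -0.16) and Il15 (log2 0.16) of the same list were near equality. Irf1 mRNA was then at 398 CPM in Rad21-/- and 313.8 CPM in wild-type cells, and its part in these differences was not tested.

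The 14 macrophage genes linked to IRF8 and PU.1 were mixed. Against wild-type, 1 of 11 was lower untreated, 4 of 13 at 2 h and 3 of 13 at 8 h, while 2 were higher at 8 h, Ncf1, a subunit of the phagocyte oxidase (log2 1.37), and Csf1r, the receptor for macrophage colony-stimulating factor (log2 1.23). Cebpb, a myeloid transcription factor, was lower at each time (log2 -1.40, -1.13 and -1.74). Among 13 partners and regulators with values, of 15 listed, Trim30a was the 1 gene of 8 tested lower untreated (log2 -1.27) and 0 of 9 passed in either direction at 2 h. At 8 h Trim30a was lower (log2 -1.09), and Irf2bp2, a corepressor of IRF2 (log2 1.25), was higher. Irf4, a relative of Irf8 outside the 7, had 1 to 21 UMIs in each comparison, both samples together, and was not tested.

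For the members that ranged over at least 2-fold across samples, the genes with the most similar profile over the 6 samples were found among 3353 genes by the root mean square difference of centred log2 levels. Nearest to Irf1 were Ripk2 (0.30), Junb (0.33) and Nfkbie (0.46). Ripk2, a signalling kinase, stood at 104 and 129.3 CPM at 2 h in wild-type and Rad21-/- cells and at 6.29 and 7.42 CPM untreated. Nearest to Irf7 were Tap1, the peptide transporter (0.28), Oasl2 (0.28) and Xaf1 (0.33), all interferon-induced genes. Oasl2 and Xaf1 are also in the ISRE list, and Tap1 is in the list linked to IRF1. Tap1 stood at 75.5, 48.9 and 220.8 CPM in wild-type and 24.9, 17.9 and 87.4 CPM in Rad21-/- cells. Irf8 was nearest to Kdm7a (0.09), Anxa6 (0.12) and Pxk (0.19), and Irf9 to S100a11 (0.13), Psma1 (0.15) and Psma4 (0.18). These smaller differences do not mean closer matches, as Irf8 and Irf9 ranged over 1.18 and 1.29 in log2, and Irf1 and Irf7 over 3.93 and 3.46. Neighbouring samples of Irf8 and of Irf9 also overlapped in counting error. The profiles of Irf2 and Irf5 ranged over less than 2-fold and were not matched, and Irf3 had too few UMIs for a match to be read.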

How the data were processed

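The authors sorted macrophages into plates, made MARS-seq libraries, checked the reads with FastQC, split them by cell and pool, mapped them to the mouse assembly GRCm38.p4 with GEMTools and collapsed reads by UMI. The deposited values are raw UMI counts with no normalization, for 18429 genes and 1362 cells in 24 pools. Cell names gave the sample and the pool of every column, 0 columns were left unused, and 1 gene symbol occurred more than once.

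CPM used each cell's own total. Shares carry exact Clopper-Pearson intervals and ratios of thinned UMI sums exact conditional intervals, both at 95%. Neither covers variation between cultures or animals, since each condition is 1 sample. Reads sharing a UMI were collapsed, but the intervals treat molecules as independent. Thinning sampled each cell's UMIs without replacement down to 3800, and to 5500 as an alternative. Calls used a 2-fold limit on log2(mean CPM + 1), a scale that understates the change of low genes, and at least 100 UMIs. Where a comparison of 2 samples found too few UMIs, the gene was not tested. The scripts were tested on simulated data. Python 3.11.15, numpy 2.4.6, pandas 2.3.3, scipy 1.17.1 and matplotlib 3.10.9 were used.

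The members and the lists were chosen with earlier results of these data known. Named genes are the members, Rad21, up to 3 genes per list, comparison and direction past 2-fold, and for members ranging over at least 2-fold the 3 genes of most similar profile with at least 600 UMIs. Some genes that this rule names are not reported here. Irf4, Ifnb1 and the values given for a gene in a further comparison were chosen after values were seen. Promoters and gene spans are from RefSeq on GRCm38.p6, a later patch of the authors' build. Alternatives were both thinning depths, pooled CPM, 10 CPM added, 1.5-fold, no UMI filter, leaving out wells above 25000 UMIs, at least 2 UMIs per positive cell and leaving out each pool.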

Additional observations from a re-analysis of the deposited data

How the results depend on the processing

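No called ratio of a member changed sign under any alternative, and leaving out wells above 25000 UMIs changed no count of called members. All 42 shares of positive cells moved when a positive cell needed at least 2 UMIs and 39 of 42 after thinning to 3800 UMIs. Counts that moved were these. In Rad21-/- against wild-type cells, 2 members were lower untreated at 1.5-fold, and at 8 h 1 member was lower after thinning to 3800 UMIs, with pooled CPM or with 10 CPM added, since Irf1 then missed 2-fold. Leaving out 1 pool at a time gave 1 to 3 lower at 8 h, as Irf1 missed or Irf8 passed 2-fold, and thinning to 5500 UMIs (Irf8, log2 -1.09) or a 1.5-fold limit gave 3. Without the UMI filter 1 was higher at 8 h (Irf3). In wild-type cells 2 were lower at 2 h and 2 higher at 8 h than untreated at 1.5-fold. From 2 to 8 h 1 was higher and 1 lower with pooled CPM (Irf1, log2 -1.13), and 1 was lower at 1.5-fold. In Rad21-/- cells at 2 h, 2 were higher than untreated after thinning to 3800 UMIs (Irf5, log2 1.10), and 2 were higher and 1 lower at 1.5-fold. From 2 to 8 h 2 were higher after thinning to 3800 or 5500 UMIs (Irf9, log2 1.30 and 1.08) and at 1.5-fold. Beyond these constructions the cause was not tested. No paired analysis was possible because each group is 1 sample and the labels give no replicate numbers. One sample per condition limits every comparison, and sparse counts limit Irf3 most.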
